A study of Rattus norvegicus with 6 samples.

Results

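The FOS, JUN and EGR immediate early genes were examined here in cultured oligodendrocyte precursor cells (OPCs), which divide and mature into the myelin-forming oligodendrocytes of the brain. The members were the 10 genes Fos, Fosb, Fosl1, Fosl2, Jun, Junb, Egr1, Egr2, Egr3 and Ier2, found by name among the 32883 genes of the deposited count table, and each name had 1 entry. The cells were primary OPCs from the cerebral cortices of newborn Sprague Dawley rats, separated from mixed cultures by shaking and kept in Neurobasal with B27 and N2. The culture protocol of the study names 2 rats. It does not say how many preparations the libraries came from, or which library came from which animal. Cells were treated with 5 µM ZJU-37, an inhibitor of the kinase activity of RIPK1, or with the same volume of its solvent DMSO, for 36 h according to the sample labels, whereas the methods of the study state a shorter time. RNA was poly-A selected, and each group had 3 libraries, numbered 1 to 3.

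Immediate early genes are transcribed soon after a cell receives a growth factor or another stimulus, without a need for new protein, through factors that wait on their promoters such as SRF with its ETS partners and CREB. FOS and JUN proteins pair to form AP-1, which binds DNA and turns on later genes, and FOS proteins need a JUN partner to do so. EGR proteins are zinc finger transcription factors that bind GC-rich sites. In OPCs, PDGF acting on its receptor PDGFRα is the classical stimulus for division.

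The libraries held between 13935865 and 24097927 counts, and levels are given as CPM, the count relative to library size. At this depth 3 counts equal 0.124 to 0.215 CPM, with counting error alone considered. Of 9 OPC markers found, none was under 1 FPKM (fragments scaled to gene length and library total), and the highest was the lineage factor Olig1. This list itself shifted, with 8 of the 9 markers called: Pdgfra, Cspg4, Olig1 and Ptprz1 were higher with ZJU-37 and Sox10, Gpr17, Vcan and C1ql1 lower, the last group led by Gpr17, a gene of OPCs on the way to differentiation, at a log2 fold change of -3.43. The called share of this list was 88.9%, against 15.0% of all genes tested. Leaving out 1 library left 1 to 4 of the higher and 3 to 4 of the lower markers called. The part of these shifts in the members' levels was not tested. The cultures also held transcripts of other cells: summed FPKM ranged from 1170 to 2080 with DMSO and from 867 to 1850 with ZJU-37 for 10 microglia markers, and from 3910 to 7660 and from 1640 to 3350 for 10 markers of mature oligodendrocytes. The 10 astrocyte markers summed to 345 to 519 FPKM with DMSO and 300 to 433 FPKM with ZJU-37, whereas the 9 endothelial markers found summed to at most 6.28 FPKM, with Cldn5 and Emcn at 0 in every library. In such bulk RNA, fewer cells of a type and less RNA per cell cannot be told apart, and the cell type that a member's reads came from was not measured.

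Promoter sequences for 7 of the 10 members were matched by symbol in the RefSeq table of assembly GRCr8, and Fos, Jun and Egr3 had no entry. The 250 bases before the annotated start are shown for Egr1, Egr2 and Ier2, which rose with ZJU-37, and for Junb, which was not called, so that the letters before their starts can be compared. Capitals mark the CArG box, a run of A and T between CC and GG that is the recognition site of SRF, and the cAMP response element TGACGTCA of CREB or its half-site TGACG, on either strand.

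Egr1, chr18:26736828-26737077, plus strand: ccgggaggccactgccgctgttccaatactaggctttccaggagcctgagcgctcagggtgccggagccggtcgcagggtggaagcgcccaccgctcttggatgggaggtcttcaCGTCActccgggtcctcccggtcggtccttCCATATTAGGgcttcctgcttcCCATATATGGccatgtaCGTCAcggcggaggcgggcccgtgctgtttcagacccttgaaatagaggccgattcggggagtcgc
Egr2, chr20:21054442-21054691, minus strand: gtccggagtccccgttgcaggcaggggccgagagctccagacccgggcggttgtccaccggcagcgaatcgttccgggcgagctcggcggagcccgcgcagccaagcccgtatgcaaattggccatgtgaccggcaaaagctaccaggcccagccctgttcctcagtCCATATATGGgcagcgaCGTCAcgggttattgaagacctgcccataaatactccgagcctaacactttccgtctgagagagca
Ier2, chr19:40399123-40399372, plus strand: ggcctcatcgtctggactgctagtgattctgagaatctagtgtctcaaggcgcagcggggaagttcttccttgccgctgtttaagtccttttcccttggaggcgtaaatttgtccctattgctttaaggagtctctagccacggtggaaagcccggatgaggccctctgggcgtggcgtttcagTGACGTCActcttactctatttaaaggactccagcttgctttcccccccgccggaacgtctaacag
Junb, chr19:40080876-40081125, plus strand: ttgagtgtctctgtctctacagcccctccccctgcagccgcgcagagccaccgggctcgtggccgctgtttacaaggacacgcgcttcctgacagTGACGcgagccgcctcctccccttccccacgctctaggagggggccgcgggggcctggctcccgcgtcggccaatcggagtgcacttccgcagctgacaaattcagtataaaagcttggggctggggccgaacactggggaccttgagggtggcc

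In this window Egr1 held 2 CArG boxes, the first from 105 to 96 and the second from 83 to 74 bases before the start. Egr2 held 1 CArG box, also from 83 to 74 bases before the start, with the same letters as the second box of Egr1, CCATATATGG. A half-site of the cAMP element followed from 66 to 62 bases before the start in both genes. A CArG box was present in 412 of 27457 promoters of this length (1.5%), and at least 2 were present in 7 promoters (0.0255%). Ier2 held the whole cAMP element from 66 to 59 bases before the start, which 466 promoters (1.7%) shared. The half-site was more common: it stood in 5 of the 7 members and in 19% of all promoters; it overlaps the whole element in Ier2 and was added to the search after the sequences had been seen.

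The other motifs were searched on both strands as well. The ETS core CCGGAA was found in Egr2 and Ier2 (13.4% of all promoters), the TATA box TATAAA in Fosb, on the strand opposite to the gene, and Junb (13.1%), and the EGR site GCGNGGGCG in Fosl2 (4.53%). The AP-1 site TGANTCA (6.36% of all promoters) and the kappaB site of NF-κB (6.41%) had no match in the 7 windows. A match describes letters only, and binding was not measured.

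**Figure D1:**
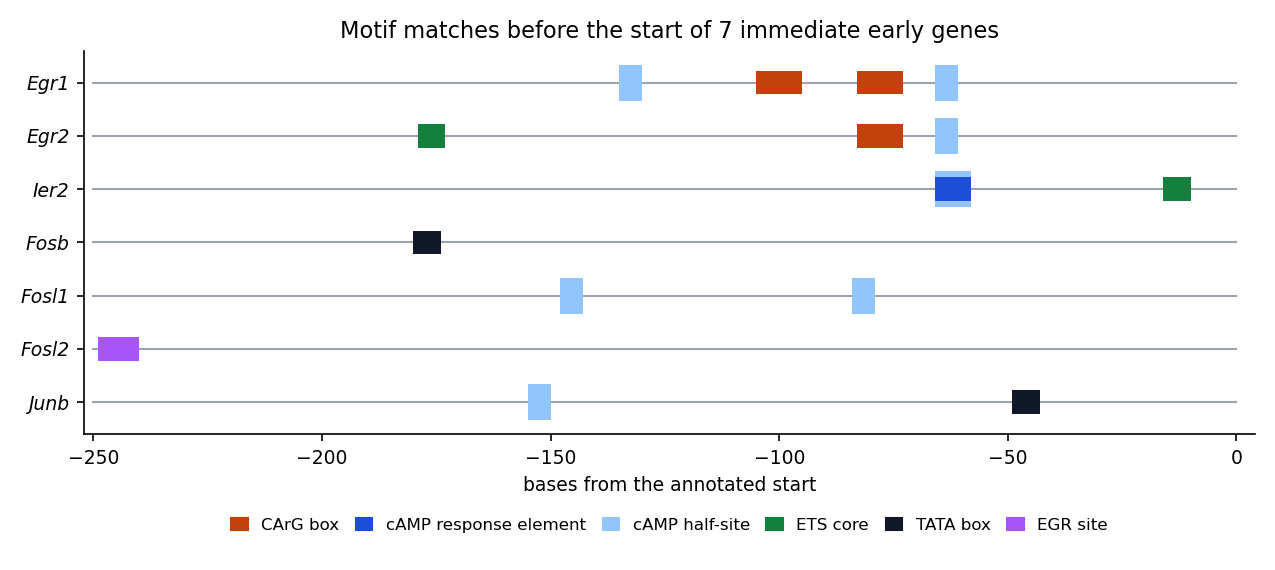
Motif matches in the 250 bases before the annotated start of 7 immediate early genes (RefSeq, GRCr8). The horizontal axis gives bases from the start, each row is a gene and each coloured box a match on either strand. Among these 7 genes and in this window, CArG boxes appear in Egr1 and Egr2 only, and in both genes a box ends 74 bases before the start. Ier2, which also rose, held no CArG box, and Fos and Egr3, which rose too, had no promoter entry.

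The question of the comparison was how RNA levels differed between OPCs given ZJU-37 and OPCs given DMSO. With ZJU-37, 5 of the 10 members rose (Egr1, Egr2, Egr3, Ier2 and Fos) and 0 fell. The fitted rise was highest for the EGR genes: Egr1 and Egr2 were 4.31-fold and 4.4-fold higher, and Egr3 2.49-fold higher. Ier2 and Fos rose 1.89-fold and 1.76-fold, whereas Fosb, Fosl1, Fosl2, Jun and Junb were not called in either direction. Calls were made at an adjusted p under 0.05 in the quasi-likelihood test of edgeR, adjusted by Benjamini-Hochberg over the 14670 genes that passed the filter on low counts, and all 10 members passed that filter. Of all genes tested, 15.0% were called, 9.43% higher and 5.58% lower. In the 5 called members the libraries of the groups did not overlap, as in 35.2% of all genes tested, 19.0% in the direction of higher with ZJU-37. The median log2 fold change was 0.54 over the members and -0.03 over all genes tested. The members' median lies between Fosl1 (0.26), the highest member not called, and Fos (0.82), the lowest called. Members were chosen with earlier results of these data known, so these comparisons with all genes describe the list and are no independent test.

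The same 5 members were called in each of the 16 alternative fits and at an adjusted p under 0.01. The count of 0 members lower also held at an unadjusted p under 0.05, in DESeq2 and in limma-voom. With the replicate number as a block, under which 32.1% of all genes were called (16.2% higher and 15.9% lower), the members' calls were again 5 higher and 0 lower. Of the 10 markers of mature oligodendrocytes, 2 fell and 0 rose, or 20% called against 15.0% of all genes tested. Their median log2 fold change was -1.01. At an unadjusted p under 0.05, 7 were lower and 0 higher, as in DESeq2, and with the block 6 fell. The part of this shift in the members' levels was not tested. The labels do not say whether libraries came from separate animals. The methods of the study call them biological repeats and a figure legend plate wells, so whether they were independent cultures is unclear. The p-values therefore measure the spread between these libraries, which may be technical.

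**Figure D2:**
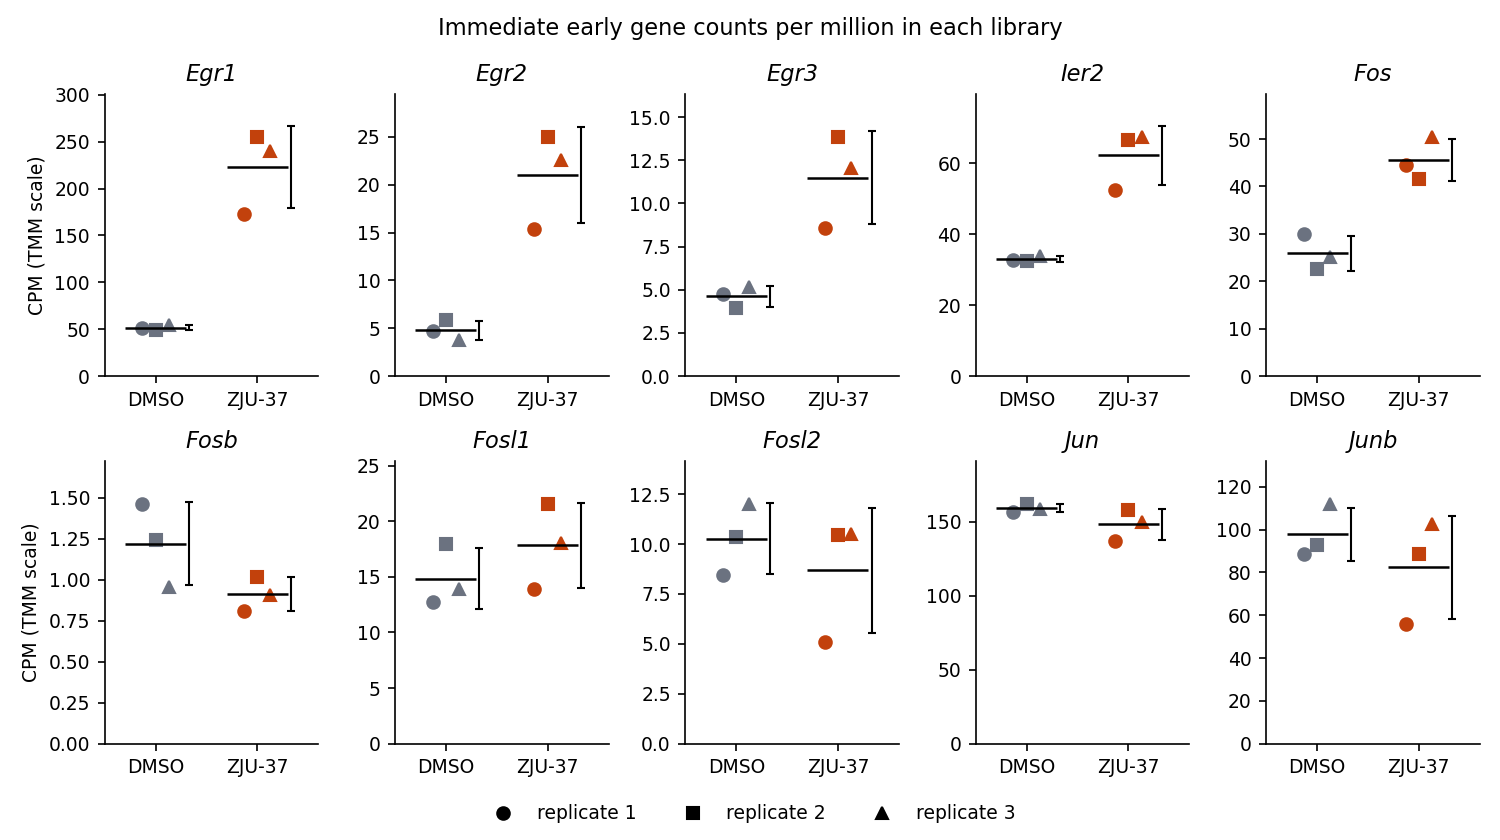
CPM on the TMM scale of each member in each library, with symbols for the replicate number, the group mean as a line and the SD (n = 3) as a bar beside it. For Egr1, Egr2, Egr3, Ier2 and Fos every ZJU-37 library lies above every DMSO library, while for the other 5 members the groups overlap, and replicate 1 (circle) is the lowest ZJU-37 library in 9 of the 10 panels.

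Among the EGR genes, Egr1 (ENSRNOG00000019422, chr18:27657628-27661429 in the deposited table, whose build is not given in the sources used here) encodes a zinc finger factor induced by most growth factors through ERK. Its level was 51.0, 49.3 and 54.8 CPM in DMSO replicates 1 to 3, and 173, 255 and 240 CPM in ZJU-37 replicates 1 to 3. The DMSO libraries lay close together and the ZJU-37 libraries were all far above them, with replicate 1 the lowest. The mean rose from 51.7 ± 2.83 to 223 ± 43.5 CPM (SD, n = 3), a log2 fold change of 2.11 (SE 0.15, 95% interval 1.74 to 2.47, edgeR adjusted p = 0.000439).

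Egr2 (ENSRNOG00000000640, chr20:22454463-22459025), known best for its part in Schwann cell myelination and hindbrain patterning, was a rarer transcript in CPM. It stood at 4.75, 5.82 and 3.77 CPM with DMSO and at 15.4, 25 and 22.6 CPM with ZJU-37. Again the groups did not overlap and ZJU-37 replicate 1 was the lowest of its group. The log2 fold change was 2.14 (SE 0.24, 95% interval 1.57 to 2.71, edgeR adjusted p = 0.00177).

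Egr3 (ENSRNOG00000017828, chr15:51756736-51760722), a relative needed for muscle spindle development, stood at 4.75, 3.95 and 5.15 CPM with DMSO and at 8.60, 13.9 and 12 CPM with ZJU-37. The groups did not overlap, though the lowest ZJU-37 library was nearer to the DMSO libraries than for Egr1 and Egr2. The log2 fold change was 1.32 (SE 0.22, 95% interval 0.81 to 1.83, edgeR adjusted p = 0.0082). The fourth EGR gene, Egr4, is no member and was measured for comparison. It was close to the detection limit, with 6 to 21 counts a library, and its log2 fold change of 0.06 had an interval from -1.06 to 1.17, too wide to exclude a change of either direction.

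Ier2 (ENSRNOG00000054344, chr19:25774143-25775659), an early response nuclear protein that is not a member of these families, carries the biotype pseudogene in the deposited table, and reads shared with a near-identical copy were not checked. It stood at 32.7, 32.5 and 33.9 CPM with DMSO and at 52.7, 66.7 and 67.6 CPM with ZJU-37. The DMSO libraries were nearly equal, with an SD of 0.03 on the log2 scale, and every ZJU-37 library was higher. The log2 fold change was 0.92 (SE 0.11, 95% interval 0.66 to 1.17, edgeR adjusted p = 0.00203).

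Among the FOS genes, Fos (ENSRNOG00000008015, chr6:109300433-109303299) encodes the archetypal partner of JUN in AP-1. It stood at 30.0, 22.7 and 25.2 CPM with DMSO and at 44.6, 41.6 and 50.5 CPM with ZJU-37. The groups did not overlap, and Fos was the 1 member whose lowest ZJU-37 library was replicate 2 and not replicate 1. The log2 fold change was 0.82 (SE 0.12, 95% interval 0.52 to 1.11, edgeR adjusted p = 0.00619).

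The other FOS genes overlapped between groups. Fosb, a rapidly induced relative of Fos, was rare, with 15 to 22 counts in each library, and its log2 fold change of -0.40 had a 95% interval from -1.05 to 0.25 (adjusted p = 0.392 with the block). Fosl1 (FRA-1), usually a later and growth factor-dependent gene, stood at 12.7, 17.9 and 13.9 CPM with DMSO and at 13.9, 21.5 and 18.0 CPM with ZJU-37. In each same-numbered pair the ZJU-37 library of Fosl1 was the higher, by 0.13, 0.26 and 0.37 on the log2 scale, whereas that of Fosb was the lower in each, by differences of -0.77, -0.26 and -0.06. The fold change of Fosl1 of 0.26 was not called without the block (interval -0.21 to 0.73) or with it (adjusted p = 0.0715). Fosl2 (FRA-2) stood at 8.47, 10.3 and 12 CPM with DMSO and at 5.08, 10.5 and 10.5 CPM with ZJU-37. Only ZJU-37 replicate 1 lay apart, and the log2 fold change of Fosl2 was -0.24 with this library (interval -0.95 to 0.47) and 0.04 without it.

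Among the JUN genes, Jun, which can form AP-1 as a homodimer, had the smallest fold change of the 10 members. It stood at 157, 162 and 159 CPM with DMSO and at 137, 158 and 150 CPM with ZJU-37, and the groups overlapped. Its log2 fold change of -0.10 had a 95% interval from -0.26 to 0.06, so that a rise of the size seen for Fos lay outside it. In each same-numbered pair the ZJU-37 library of Jun was the lower, with differences of -0.19, -0.03 and -0.08, and Jun was not called with the block either (adjusted p = 0.173). Junb, often an antagonist of JUN on AP-1 sites, stood at 88.5, 92.9 and 112 CPM with DMSO and at 55.9, 88.6 and 103 CPM with ZJU-37. As with Fosl2, replicate 1 alone lay below the DMSO libraries by a wide margin. The log2 fold change of Junb was -0.25 (interval -0.78 to 0.29) with this library and -0.01 without it. Junb too was lower in each same-numbered pair, with differences of -0.66, -0.07 and -0.12, and was not called with the block (adjusted p = 0.188). Jund, the third JUN gene and no member, rose from 143 ± 8.06 to 176 ± 3.25 CPM (SD, n = 3, log2 fold change 0.29, edgeR adjusted p = 0.0225). That call was lost without DMSO replicate 2 (adjusted p = 0.0914) and without DMSO replicate 3 (adjusted p = 0.0772).

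**Figure D3:**
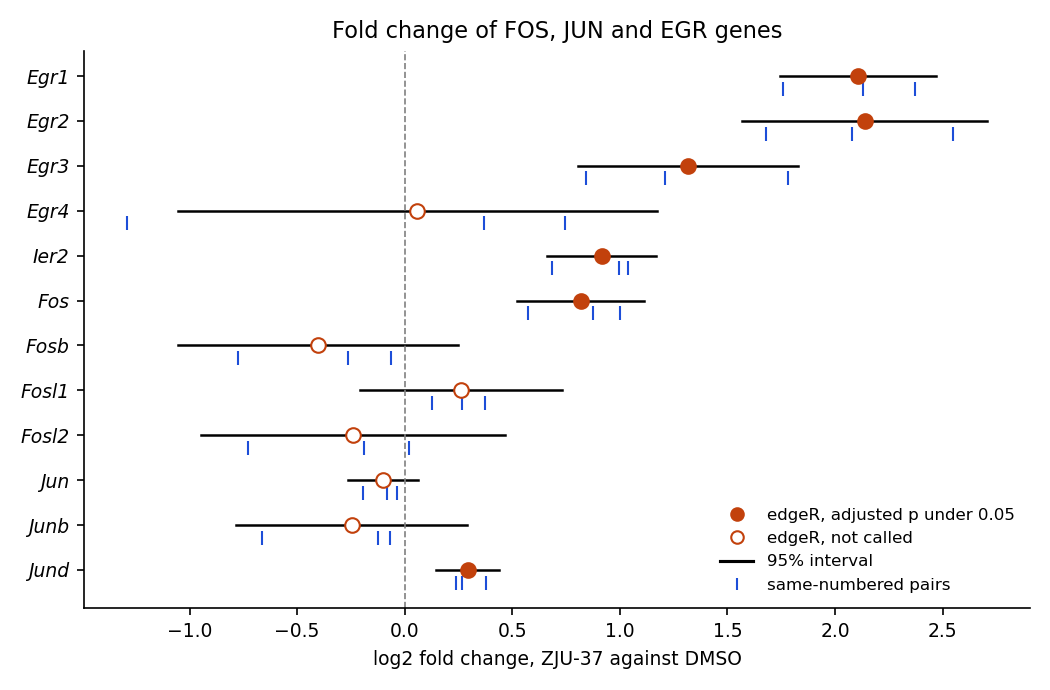
Log2 fold change of ZJU-37 against DMSO for the 10 members, Egr4 and Jund, with 95% intervals from edgeR and the differences of same-numbered libraries as ticks. Filled points had an adjusted p under 0.05. Egr1, Egr2 and Egr3 lie highest, Ier2 and Fos near 0.9 and 0.8, and the intervals of Fosb, Fosl1, Fosl2, Jun, Junb and Egr4 include 0.

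The members differed in how far replicates spread. In the ZJU-37 group, replicate 1 was the lowest library for 9 of 10 members, whereas in the DMSO group the lowest library was replicate 1 for 4 members, replicate 2 for 4 and replicate 3 for 2. The SD of log2 CPM in the ZJU-37 group was 0.60 for Fosl2 and 0.46 for Junb, against a median of 0.14 over 13893 genes with at least 1 CPM. It was 0.30 for Egr1 and 0.10 for Jun. The summed microglia markers were also lowest in replicate 1 of each group, at 1170 FPKM with DMSO and 867 FPKM with ZJU-37, against 2080 and 1720 FPKM in DMSO replicates 2 and 3 and 1850 and 1460 FPKM in ZJU-37 replicates 2 and 3. Of the 10 microglia markers 0 were called by edgeR, also at an unadjusted p under 0.05 and by DESeq2, and 3 were lower with the replicate block. The part of these cells in the members' levels was not tested. Without ZJU-37 replicate 1 the same 5 members were called higher and 0 lower.

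Levels of different genes are compared per length, as deposited FPKM. With DMSO, the JUN genes were the most abundant, with Jund at 84.9 ± 4.36, Junb at 54.6 ± 6.9 and Jun at 51.2 ± 1.1 FPKM (SD, n = 3), and the libraries of Junb and Jun overlapped. Ier2 followed at 22.4 FPKM, then Egr1 at 16.4, Fos at 16.2 and Fosl2 at 13.7 FPKM, of which Egr1 overlapped with Fos and Fos with Fosl2. Fosl1 stood at 8.89 FPKM, Egr3 at 1.69 and Egr2 at 1.47 FPKM, these last overlapping, and Fosb and Egr4 were lowest, both at 0.324 FPKM. With ZJU-37, Egr1 at 70.6 ± 13.1 FPKM stood above Jun (47.7 ± 2.95) and Junb (45.8 ± 13), and below Jund (104 ± 2.99). The libraries of Egr1 did not overlap those of Jun or Jund, but overlapped with those of Junb. Ier2 at 42.1 FPKM overlapped with Junb. Fos at 28.5 FPKM lay clear of its neighbours, Fosl2 at 11.6 FPKM overlapped with Fosl1 at 10.6, and Egr2 at 6.44 FPKM overlapped with Egr3 at 4.21. The FPKM of Fosl2 rests on a gene length of only 744 bases in the table, against 1589 bases for Fos.

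Summed over each family, the EGR genes stood at 19.9 ± 0.728 FPKM with DMSO and 81.6 ± 15.7 FPKM with ZJU-37 (SD, n = 3). The FOS genes stood at 39.2 ± 1.2 and 50.9 ± 6.44 FPKM, and the JUN genes, Jund included, at 191 ± 6.51 and 197 ± 12.3 FPKM. In every library the summed EGR level lay below the FOS level with DMSO and above it with ZJU-37. Within the EGR family, Egr1 made up 82.5% ± 1.33 with DMSO and 86.6% ± 0.652 with ZJU-37, while Egr3 made up 8.48% ± 0.811 and 5.14% ± 0.221. Within the FOS family, Fos made up 41.5% ± 6.82 and 56.4% ± 7.83, with overlapping groups but a higher share with ZJU-37 in each same-numbered pair (by 15.3, 12.6 and 16.8 percentage points), and Fosl2 35% ± 5 and 22.3% ± 5.73. Within the JUN family, Jund made up 44.6% ± 2.45 and 52.8% ± 4.93. For 7 of the 11 shares (Egr1, Egr3, Egr4, Fosb, Fosl2, Jun and Jund) the libraries of the groups did not overlap, with p = 0.1 each in an exact two-sided permutation test, the smallest that 3 against 3 libraries allow, and 0.157 after Benjamini-Hochberg adjustment over the 11 shares computed. Within same-numbered pairs, 3 shares (Fos, Jund and Egr1) were higher with ZJU-37 in every pair and 7 were lower in every pair, all except that of Egr2, but 3 pairs allow no exact paired p below 0.25. The shares of a family add up to a fixed total, so a rise of 1 gene lowers the others, and the shares are not separate observations. A lower share need not mean a lower level: Fosl1 itself was higher in each pair, by 0.13, 0.26 and 0.37 in log2 CPM. Neither design could bring a share past the threshold.

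**Figure D4:**
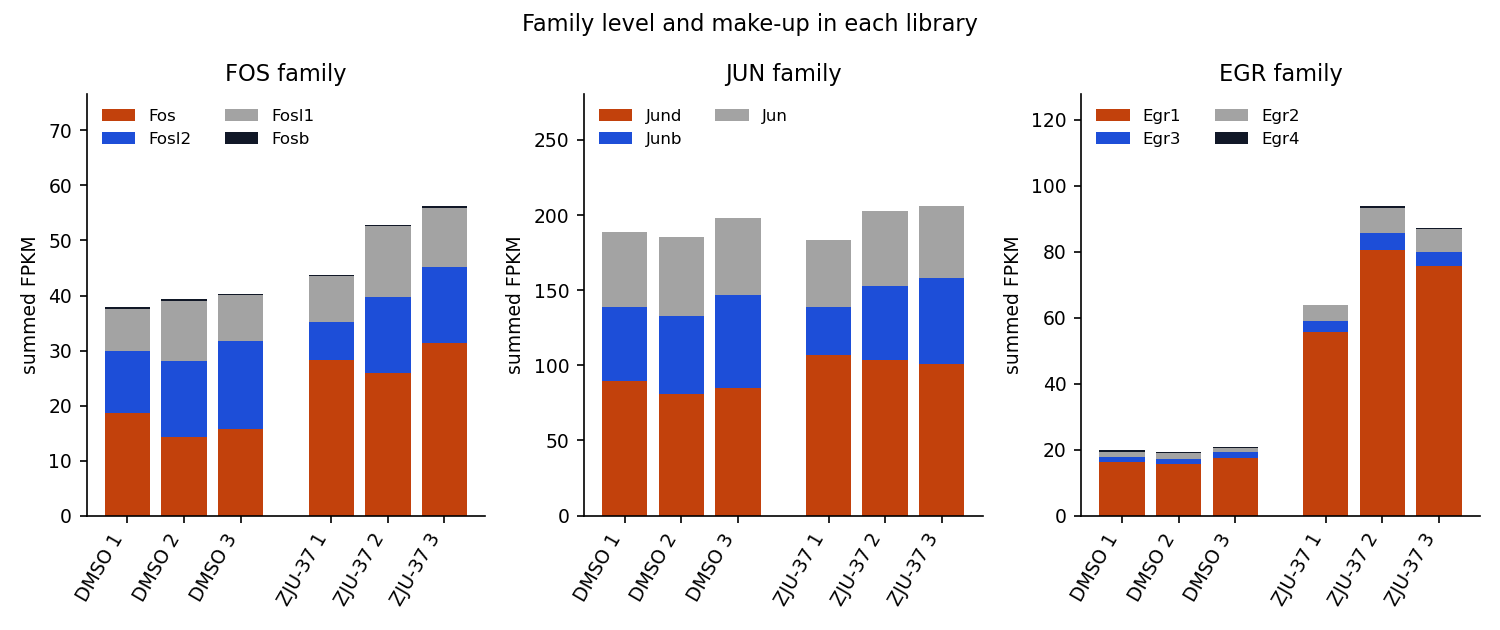
Summed FPKM of the FOS, JUN and EGR families in each library, stacked by gene, with Jund and Egr4 included as family members. The EGR bars run from 19.3 to 20.7 FPKM with DMSO and from 63.9 to 93.7 FPKM with ZJU-37, most of it Egr1, while the JUN bars stay between 183 and 206 FPKM in all 6 libraries.

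Egr2 had the largest fitted log2 fold change of the members, at 2.14 against 2.11 for Egr1, a difference well within their standard errors, and Egr1 stood above Egr2 in 4 of the 16 alternatives. Egr2 was used as the reference for this reason alone. The 3 genes of 13892 whose log2 CPM profile over the 6 libraries, centred on its mean, was nearest to that of Egr2 were Egr1, Nptxr and Lef1, with root mean square differences of 0.22, 0.26 and 0.27 on the log2 scale. Nptxr, a neuronal pentraxin receptor, stood at 96.1 ± 6.09 CPM with DMSO and 374 ± 46.2 CPM with ZJU-37, and Lef1, a transcription factor of the WNT pathway, at 3.69 ± 0.1 and 17.6 ± 1.63 CPM (SD, n = 3). These likenesses rest on the same 6 libraries and are a description.

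The other immediate early genes went both ways. Of 38 genes in that list, all tested, Jund among them, 6 rose and 2 fell, or 21.1% called against 15.0% of all genes tested. The median log2 fold change was -0.03, as over all genes. Those that rose most were Klf10, a zinc finger factor of TGF-β signalling, from 23.0 ± 1.8 to 63.1 ± 8.75 CPM (log2 fold change 1.46), Phlda1, an early response gene, from 60.2 ± 2.96 to 154 ± 17.3 CPM (1.36), and the stress gene Gadd45g from 23.7 ± 1.23 to 46.2 ± 8.2 CPM (0.96). Arc, a neuronal early gene, was called at a log2 fold change of 0.78 (edgeR adjusted p = 0.0276), but lost the call when any 1 library other than ZJU-37 replicate 1 was left out, with adjusted p up to 0.103. The 2 genes that fell were Npas4, a neuronal activity factor (-1.16, edgeR adjusted p = 0.0494), whose call was lost when any of the 6 libraries was left out, and the synaptic scaffold gene Homer1 (-0.68, adjusted p = 0.0132), lost without ZJU-37 replicate 3 (adjusted p = 0.0583). With the replicate block 9 genes of this list rose and 9 fell, while 16.2% of all genes were called higher and 15.9% lower under it.

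Among 18 partners and modulators of AP-1 and EGR, 2 rose in edgeR and 0 fell, or 11.1% called against 15.0% of all genes tested. With the block 3 rose and 3 fell, while 32.1% of all genes were called under it. The 2 were Jund and Nab2, a corepressor that binds EGR proteins and is itself an EGR target, which rose from 24.1 ± 2.87 to 71.8 ± 8.12 CPM (log2 fold change 1.58, SE 0.12, edgeR adjusted p = 0.000505). The count of 0 lower was also 0 at an unadjusted p under 0.05 and by DESeq2, and it was 1 when DMSO replicate 1 was left out.

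Genes upstream of immediate early genes, from receptors to kinases, went both ways: of 35 tested, 4 rose and 3 fell, or 20% called against 15.0% of all genes tested. Pdgfra, the PDGF receptor of OPCs, rose from 394 ± 49.2 to 844 ± 249 CPM (log2 fold change 1.10, edgeR adjusted p = 0.0182), a call lost without DMSO replicate 2 (0.0775) or DMSO replicate 3 (0.0693). The JNK gene Mapk10 (0.69) and the FGF receptor gene Fgfr1 (0.35) rose as well. The genes that fell encode kinases of the ERK pathway, namely the RSK gene Rps6ka2 (-0.76), the MSK gene Rps6ka5 (-0.69) and the ERK1 gene Mapk3 (-0.55, from 279 ± 27.6 to 191 ± 16.6 CPM). The call of Rps6ka2 was lost without DMSO replicate 1, DMSO replicate 2 or ZJU-37 replicate 3, with adjusted p between 0.0631 and 0.0729. With the block 7 genes of the list rose and 5 fell, while 32.1% of all genes were called under it.

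Known AP-1 and EGR target genes went both ways. Of 31 tested, 3 rose and 3 fell, or 19.4% called against 15.0% of all genes tested, so the count lay near that of all genes. The median log2 fold change was -0.18, against -0.03 over all genes tested. The tissue factor gene F3 (1.6), Nab2 and the G1 cyclin gene Ccnd1 (1.37, from 566 ± 31.9 to 1466 ± 145 CPM) rose. Prx, the periaxin gene that EGR2 controls in Schwann cells, fell from 16.4 ± 1.09 to 6.47 ± 1.17 CPM (-1.33), and Pdgfa (-0.77) and Vegfa (-0.57) fell too. Without ZJU-37 replicate 1, 6 targets were called higher. With the block 4 rose and 8 fell, while 32.1% of all genes were called under it.

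Genes of ERK feedback and of the PEA3 ETS factors, which respond to the same growth factor pathway, were compared beside the members. Of 16 Sprouty, Spred and ERK phosphatase genes tested, 6 rose and 1 fell, or 43.8% called against 15.0% of all genes tested. The median log2 fold change of this list was 0.35. Spry4 (1.6), Spry1 (1.57) and Spry2 (0.98), inhibitors of receptor tyrosine kinase signalling, rose most, and the phosphatase gene Dusp7 fell (-0.50). Dusp5 was called (0.78, edgeR adjusted p = 0.04) but lost the call when any 1 library other than ZJU-37 replicate 1 was left out, with adjusted p up to 0.13. All 3 PEA3 factors rose (Etv4 1.28, Etv5 0.77 and Etv1 0.62). Of the 3 MYC genes, Mycl fell from 98.2 ± 11.9 to 15.7 ± 1.47 CPM (-2.64, edgeR adjusted p = 0.000132), and Mycn was called higher (0.51, adjusted p = 0.0213) but lost the call without any 1 of the DMSO libraries or ZJU-37 replicate 2, with adjusted p up to 0.0774.

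**Figure D5:**
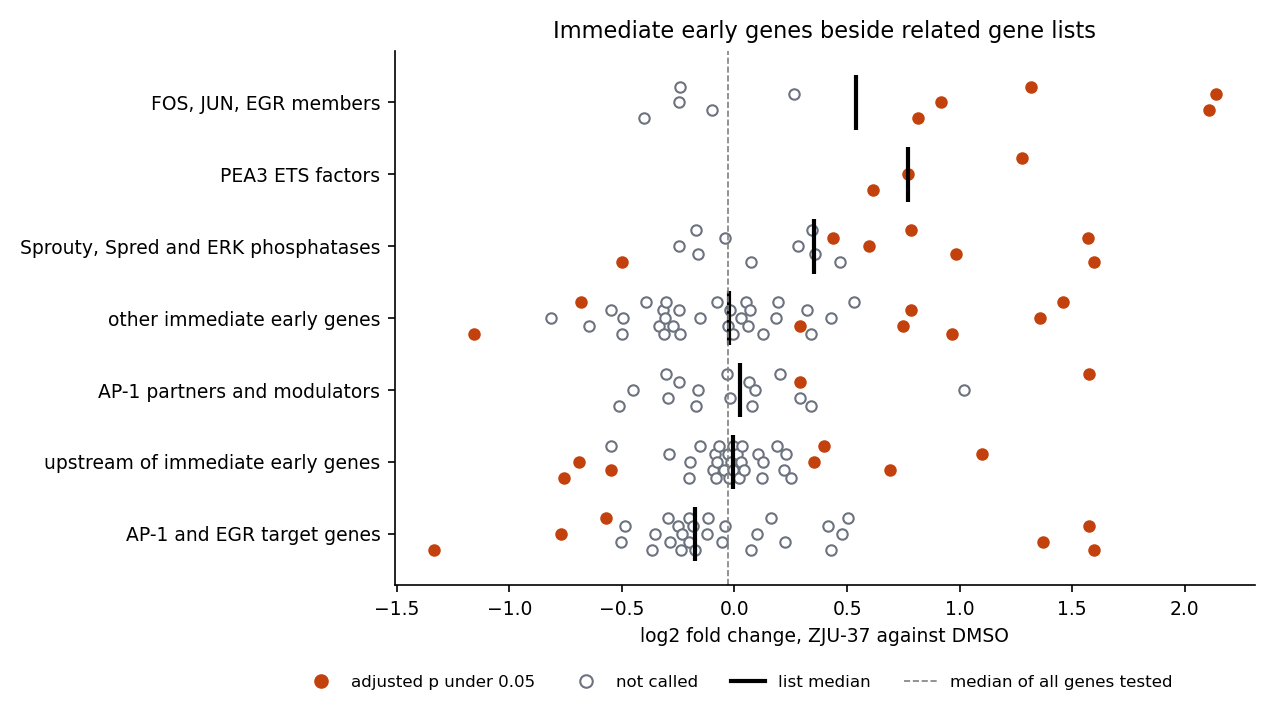
Log2 fold change of ZJU-37 against DMSO for each tested gene of the members and of 6 related lists, with filled points for an adjusted p under 0.05, a bar at each list's median and a dashed line at the median of all genes tested (-0.03). The members' points fall into a called cluster above 0.8 and an uncalled cluster around 0, and the other immediate early genes centre on -0.03.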

How the data were processed

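Poly-A RNA of 6 OPC libraries was sequenced in pairs of reads by the authors. Their processing notes name HISAT2 2.0.5, StringTie 1.3.3b and featureCounts 1.5.0, and the genome build and strand setting are not given in the sources used here. The deposited table holds raw counts per gene, neither normalized nor filtered, and FPKM values that the authors scaled by gene length and library total. It also holds the authors' own DESeq2 comparison, which was not used.

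Genes were filtered with filterByExpr (minimum count 10), scaled by TMM (factors 0.981 to 1.04) and tested with edgeR 4.0.16 (robust glmQLFit, glmQLFTest) in R 4.3.3, with Benjamini-Hochberg adjustment over 14670 genes. Confidence level was 95%. Depth was 13935865 to 24097927 counts per library. On simulated counts for this comparison, with 100 genes per fold size among 14572 tested, edgeR recovered 62% of changes of log2 size 1 and 90% of size 2, with 6.17% false calls. The simulated libraries were drawn independently, with no effect of the replicate number, unlike the real libraries, so these rates may differ in the real data. Family shares were tested by exact permutation. After subtraction of the group means, same-numbered libraries correlated across genes at r = 0.394, 0.312 and 0.329, and differently numbered libraries at -0.271 to -0.0116. Same-numbered libraries were thus more alike, though the labels do not call them pairs. The calls come from the fit without a replicate block, and the block is an alternative. Calls, standard errors and intervals leave this likeness out unless the block is named. The methods of the study do not say whether a block was used. Chi-square values between replicates were at least 11.9 per degree of freedom, and no library was treated as a duplicate.

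Members and lists were chosen with earlier results of these data known. All members were named, and from each other list the genes past the threshold, at most 4 in each direction by size of fold change. A gene that this rule names is not reported here. For the member with the largest fold change the 3 nearest profiles were named. Alternatives were DESeq2 1.42.0, limma-voom (limma 3.58.1), other scalings (RLE, upper quartile, library size only), no filter or at least 10 counts in every library, limma on log2(FPKM + 1) and log2(FPKM + 0.1), a replicate block, an adjusted p of 0.01, shares of raw counts and leaving out each library. A paired permutation test of the shares was added after seeing the data. Figures were drawn with matplotlib 3.10.9.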

Additional observations from a re-analysis of the deposited data

How the results depend on the processing

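Of the 2201 genes called, the replicate block made 4705 (2371 higher and 2334 lower), and leaving out 1 library gave 1306 to 1927, with 1306 without DMSO replicate 2 and 1351 without ZJU-37 replicate 3. The members' calls (5 higher, 0 lower) were the same in all of these. Over the 16 alternatives the log2 fold change ran from 2.02 to 2.28 for Egr1, 1.58 to 2.33 for Egr2, 0.94 to 1.5 for Egr3, 0.88 to 1.04 for Ier2 and 0.73 to 0.93 for Fos, with adjusted p at most 0.038. The lowest values of Egr2 and Egr3 lie on the log2(FPKM + 1) scale, which understates the change of low genes. Fosl2 turned to 0.0423 (adjusted p = 0.925) without ZJU-37 replicate 1, over a range of -0.381 to 0.0423 without 1 library. The change of the family share turned to 0.525 percentage points for Fosl1 without DMSO replicate 2 (range without 1 library -3.55 to 0.525) and to -0.493 for Egr2 without DMSO replicate 3 (range -0.493 to 1.38), and no call rested on either. Under the paired permutation test of the shares the smallest adjusted p was 0.275.

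In the related lists, the 2 other immediate early genes called lower became 4 with DESeq2, 1 with library size only, 1 with upper quartile scaling, 1 with no filter, 9 with the block and 0 to 2 without 1 library. With the block, AP-1 partners called lower became 3, upstream genes 7 higher and 5 lower, and targets 8 lower. Without 1 library, AP-1 partners gave 1 to 3 higher and 0 to 1 lower, upstream genes 2 to 5 higher, targets 3 to 6 higher and MYC genes 0 to 1 higher. Apart from these counts, pairing by the block changed no other call of a member. No scaling moved the median of all genes by over 0.1. Fosb and Egr4, with 6 to 22 counts a library, are limited by depth.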
